A study of Arabidopsis thaliana with 9 samples.

Results

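Genes that regulate flavonoid and anthocyanin synthesis were described, 10 of the 33518 genes in the deposited tables. They were chosen by locus for their known roles, with earlier results of these data known. They are the MYB activators PAP1 (AT1G56650), PAP2 (AT1G66390, MYB90 in the annotation) and MYB113 (AT1G66370), the bHLH proteins TT8 (AT4G09820), GL3 (AT5G41315) and EGL3 (AT1G63650), the WD40 protein TTG1 (AT5G24520), the flavonol MYBs MYB12 (AT2G47460) and MYB111 (AT5G49330), and the repressor MYBL2 (AT1G71030). All 10 had a row in each of the 9 libraries, and none had reads that map to several places.

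Polyadenylated RNA of whole Arabidopsis thaliana seedlings was sequenced from 3 genotypes under 3 treatments. The genotypes were p5cs1-4, a mutant of the proline synthesis gene P5CS1, aba2-1, a mutant of the abscisic acid (ABA) synthesis gene ABA2, and wild-type Col-0 (WT). Seedlings were grown for 7 days on medium without sugar in continuous light and then moved for 96 h to control medium at -0.25 MPa or to polyethylene glycol (PEG) plates at -1.2 MPa, which hold water back from the roots. Release means that seedlings from the PEG plates spent another 10 h on control medium. RNA of 3 experiments was pooled, so each of the 9 groups is 1 library. Differences between libraries therefore lack a replicate check, and intervals cover counting error only. In such bulk samples fewer cells of a type and less RNA per cell cannot be told apart.

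Anthocyanins are made when a MYB protein, a bHLH protein and TTG1 form a complex that switches on the late genes of the pathway, from DFR onwards. PAP1, PAP2 and MYB113 are the MYB partners in leaves and seedlings, and TT8, GL3 and EGL3 are alternative bHLH partners. MYB12 and MYB111 act without a bHLH partner on the early genes, which make the flavonol precursors, and MYBL2 takes a place in the complex and represses it. GL3, EGL3 and TTG1 also pattern leaf hairs and root hairs with other MYB proteins.

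The promoters of 4 genes are shown. PAP1, PAP2 and TT8 were at least 2-fold apart, by the rule given below, in 10, 9 and 9 of 15 comparisons of libraries. No other regulator had as many. MYB12, with 3, is set beside them as a flavonol MYB, although MYB111 had 4 and MYBL2 had 5. Each is the 250 bases before the gene start of the RefSeq TAIR10.1 annotation, written 5′ to 3′ on the strand of the gene, and capitals mark CANNTG, the E-box that bHLH proteins contact.
PAP1, chr1:21235293-21235542, minus strand: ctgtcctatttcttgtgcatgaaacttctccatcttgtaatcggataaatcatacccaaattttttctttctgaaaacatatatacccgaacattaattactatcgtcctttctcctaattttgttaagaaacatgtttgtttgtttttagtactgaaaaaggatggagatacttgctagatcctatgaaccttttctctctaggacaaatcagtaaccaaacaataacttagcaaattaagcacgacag
PAP2, chr1:24763691-24763940, plus strand: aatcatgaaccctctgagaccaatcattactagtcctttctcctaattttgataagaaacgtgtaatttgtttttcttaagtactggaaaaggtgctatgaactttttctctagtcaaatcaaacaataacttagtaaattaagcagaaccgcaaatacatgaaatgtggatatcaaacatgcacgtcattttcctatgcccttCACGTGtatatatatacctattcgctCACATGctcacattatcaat
TT8, chr4:6181631-6181880, plus strand: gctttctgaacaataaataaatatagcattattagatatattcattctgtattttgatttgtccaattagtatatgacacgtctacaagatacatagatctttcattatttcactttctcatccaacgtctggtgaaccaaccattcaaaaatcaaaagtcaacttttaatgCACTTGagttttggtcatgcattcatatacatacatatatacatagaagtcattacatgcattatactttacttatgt
MYB12, chr2:19476076-19476325, plus strand: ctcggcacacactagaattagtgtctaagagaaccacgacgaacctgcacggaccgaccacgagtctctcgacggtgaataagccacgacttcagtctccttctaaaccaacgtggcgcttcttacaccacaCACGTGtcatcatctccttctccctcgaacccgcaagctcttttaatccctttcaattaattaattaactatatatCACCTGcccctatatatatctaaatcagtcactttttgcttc

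PAP2 held 2 E-boxes, the words CACGTG and CACATG, whose first bases lie 46 and 20 bases before the gene start. MYB12 also held 2, CACGTG at 118 and CACCTG at 42 bases before the start. TT8 held CACTTG at 78 bases before its start, and the PAP1 window held no CANNTG. Searched on both strands, CANNTG was in 7 of the 10 regulators' windows and in 55.32% of the 27443 windows of protein-coding genes. The G-box CACGTG, a kind of CANNTG, was in 2 of 10 windows against 6.486% of all. ACGTG, the core of ABA-response elements and part of CACGTG, was in 4 of 10 against 22.91%, and ANCNNCC, a MYB recognition element, was in 6 of 10 against 48.81%. A match is a description of letters and not a bound site.

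PAP1 lies on chromosome 1 at 21233555 to 21235292, TT8 on chromosome 4 at 6181881 to 6186523 and MYB12 on chromosome 2 at 19476326 to 19479597. PAP2, on chromosome 1 at 24763941 to 24765541, stands in a cluster of related MYB genes in which MYB113 and MYB114 precede it. MYB113 starts 11953 bases before the end of PAP2, with 2536 bases between MYB113 and MYB114 and 4987 between MYB114 and PAP2. The first 36 bases of GL3 overlap an unnamed long non-coding RNA on the opposite strand, AT5G06145. Whether the counting used strand was not given in the sources used here.

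Depth ran between 4898426 reads on genes in the WT control and 18273148 in the p5cs1-4 control, so that 1 read stood for 0.233 CPM (reads scaled to a library of 1000000 reads) in the shallowest library. Markers of low water potential went against the labels of the stressed and released libraries. RAB18, a dehydrin induced by ABA, had 4950 CPM in the WT library labelled release, 13.9 CPM in the one labelled stress and 31.4 CPM in the WT control. PRODH1, the proline-degrading enzyme known to be low under stress and high after it, had 25.5, 188 and 187 CPM in the same order. The names "library labelled release" and "library labelled stress" are therefore used throughout. In aba2-1 the control also stood apart: RAB18 had 66.2 CPM in the library labelled release, 5.15 in the one labelled stress and 252 in the control. P5CS1 transcript was present in p5cs1-4, at 1199 CPM in the library labelled release against 3918 in the WT one. ABA2 transcript ran between 15.6 and 20.3 CPM in aba2-1 and between 19.1 and 22.1 in WT, so neither gene's RNA checks its genotype label. Leaf markers (5 of 5) and root markers (4 of 6) reached 5 CPM, while seed (0 of 4) and seed coat markers (0 of 7) did not, and of 3 flower markers PI reached it.

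Per length, PAP1 had the highest RPKM (reads scaled by gene length and library total) of the anthocyanin MYBs in 7 libraries, all but WT labelled stress and the WT control, and its level ranged between no read and 33.3 CPM over the libraries. It had 23.6 CPM in the p5cs1-4 library labelled release, 29.1 in the one labelled stress and 1.18 in the p5cs1-4 control. The aba2-1 libraries held 10.8 CPM when labelled release, 10.96 when labelled stress and 33.3 in the control. WT had 28.4 CPM in the library labelled release, no read in the one labelled stress, where 3 reads would be 0.395 CPM, and 0.233 CPM, a single read, in the control. The WT control, the WT library labelled stress and the p5cs1-4 control were thus the 3 low ones, and the aba2-1 control was the highest of the 9. In WT the library labelled release was 122-fold above the control (95% counting interval 21.7 to 4830, 247 reads against 1) and at least 71.9-fold above the library labelled stress. In p5cs1-4 the libraries labelled release and labelled stress were 20.1-fold (12.8 to 33.2) and 24.7-fold (15.6 to 41.3) above the control. In aba2-1 both were lower than the control, by 3.08-fold (2.45 to 3.87) and 3.04-fold (2.40 to 3.87). Of the 8 neighbouring pairs in the order of PAP1 levels, 5 lay within counting error.

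PAP2, a close relative of PAP1 with the same role, had lower levels and the same 3 low libraries. It measured 5.10 CPM in p5cs1-4 labelled release, 5.53 in p5cs1-4 labelled stress and 0.295 in the p5cs1-4 control. For aba2-1 the values were 0.779 CPM labelled release, 2.34 labelled stress and 13.0 in the control. The WT values were 8.84 CPM labelled release, 0.263 labelled stress and 0.233 in the control. The aba2-1 control was again the highest, 56.0-fold above the WT control (9.72 to 2242, 70 reads against 1), as it was for PAP1 (143-fold, 25.4 to 5684). The aba2-1 library labelled release was 16.7-fold below the aba2-1 control (8.58 to 36.4), a wider gap than for PAP1. Per length, on the scale of the deposited RPKM, the PAP1 level was 15.0 times that of PAP2 in that library and 2.76 times in the aba2-1 control. PAP1 was 5.01 times PAP2 in p5cs1-4 labelled release and 3.46 times in WT labelled release.

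MYB113, the third anthocyanin MYB, was at the limit of detection and reached 5 CPM in no library. Its highest level was 1.16 CPM (5 reads) in the WT control, followed by 0.656 CPM (7 reads) in aba2-1 labelled stress and 0.295 CPM (5 reads) in the p5cs1-4 control. No read was found in 4 of the 9 libraries, among them the aba2-1 control and WT labelled release where PAP1 was high, and 3 reads there would be 0.559 and 0.345 CPM. MYB113 reads were thus not found in the libraries with the most PAP1, at this depth. MYB114, its neighbour in the cluster, had 1 read in all, 0.0589 CPM in the p5cs1-4 control.

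**Figure D1:**
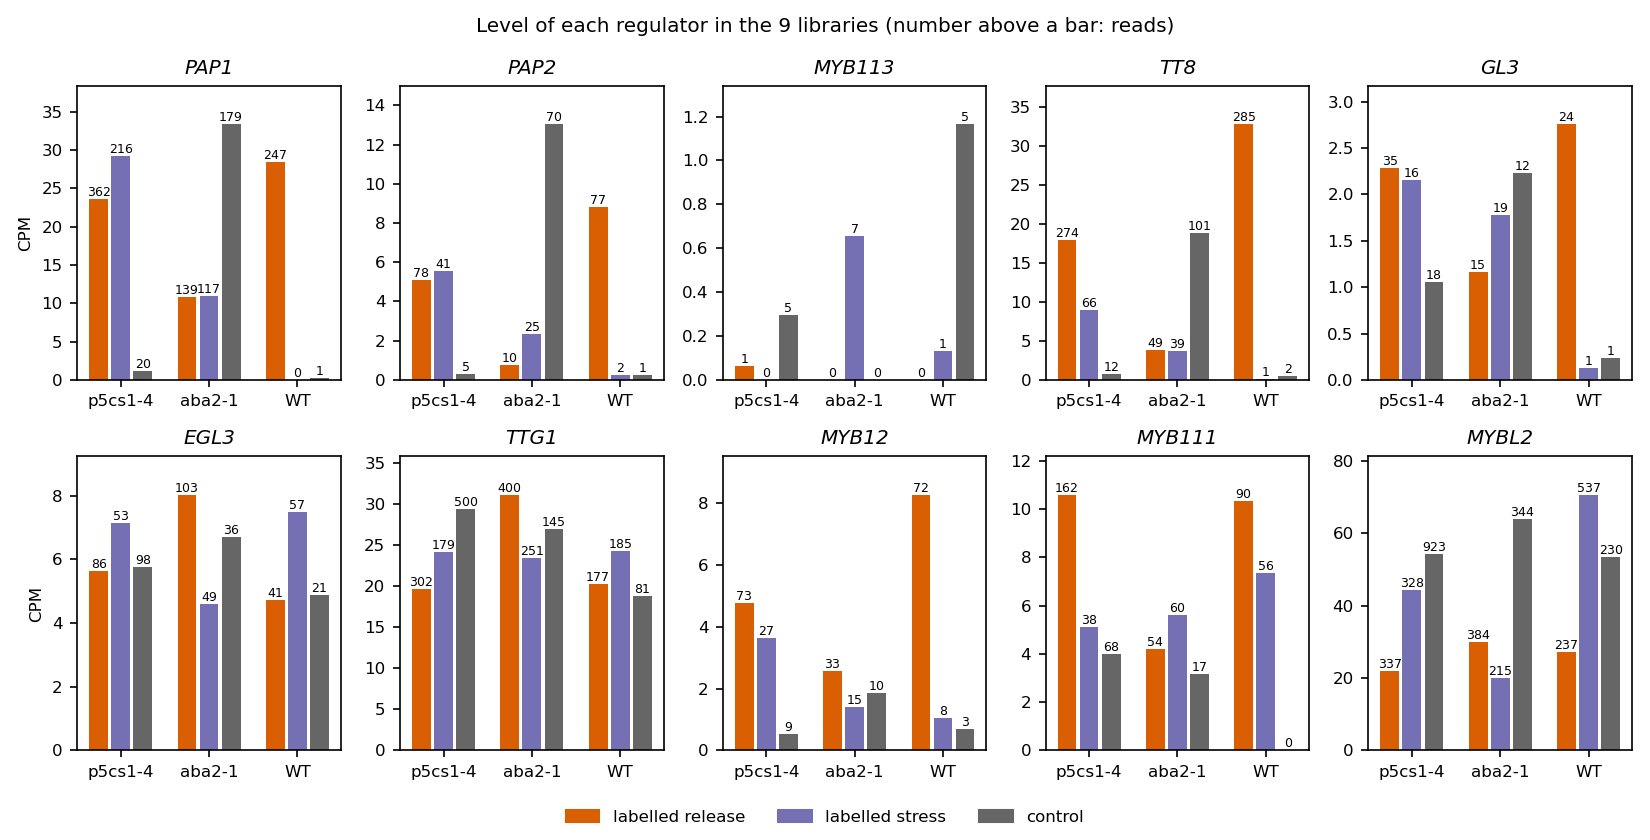
Level of the 10 regulators in each library, in CPM on a linear axis that differs between panels, grouped by genotype (p5cs1-4, aba2-1, WT) and coloured by treatment label, with the number of reads above each bar. PAP1, PAP2 and TT8 share 3 low libraries, the p5cs1-4 control, WT labelled stress and the WT control, while TTG1 and EGL3 differ by less than 2-fold over all 9.

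TT8, the bHLH partner that PAP1 and PAP2 complexes themselves are known to switch on, followed the MYB genes in which libraries were low. Levels were 17.9 CPM in p5cs1-4 labelled release, 8.91 in p5cs1-4 labelled stress and 0.707 in the p5cs1-4 control. In aba2-1 they were 3.82 CPM labelled release, 3.65 labelled stress and 18.8 in the control. In WT they were 32.7 CPM labelled release, 0.132 labelled stress (1 read) and 0.466 in the control (2 reads). WT labelled release was the highest, and its 249-fold gap over WT labelled stress (44.3 to 9862, 285 reads against 1) was the widest of any regulator with reads in every library. TT8 differed from PAP1 in p5cs1-4, where it was 2.01-fold higher labelled release than labelled stress (1.53 to 2.67), while PAP1 was 1.23-fold lower there (1.04 to 1.46).

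GL3 and EGL3, the other bHLH partners, were low in all libraries. GL3 had its highest level, 2.76 CPM, in WT labelled release and its lowest, 0.132 CPM, in WT labelled stress, and never reached 5 CPM, with 1 read each in WT labelled stress and the WT control. Its 3 lowest libraries were those of PAP1, PAP2 and TT8. EGL3 had its highest level, 8.02 CPM, in aba2-1 labelled release and its lowest, 4.59 CPM, in aba2-1 labelled stress. That 1.75-fold range was beyond counting error (1.23 to 2.51), although all 8 neighbouring pairs in its order lay within it. The make-up of the bHLH group therefore differed between libraries. Per length, TT8 made up 72.2% of the summed RPKM of the 3 genes in p5cs1-4 labelled release, 52.5% in p5cs1-4 labelled stress and 10.8% in the p5cs1-4 control. Its share was 32.8% in aba2-1 labelled release, 39.8% in aba2-1 labelled stress and 70.8% in the aba2-1 control. In WT it was 83.3% labelled release, 2.01% labelled stress and 9.74% in the control, and EGL3 made up 96.1% and 85.6% of the sum in those last 2 libraries.

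TTG1, the WD40 scaffold that every such complex needs, was the steadiest regulator. It had 19.7 CPM in p5cs1-4 labelled release, 24.2 in p5cs1-4 labelled stress and 29.5 in the p5cs1-4 control. The aba2-1 values were 31.2, 23.5 and 27.0 CPM in the same order of treatments, and the WT values 20.3, 24.3 and 18.9 CPM. The highest was 1.65 times the lowest, all 9 libraries passed 5 CPM, and no neighbouring pair in the order was apart beyond counting error. Some libraries further apart in the order did differ beyond it. TTG1 was 1.49-fold lower in p5cs1-4 labelled release than in the p5cs1-4 control (1.29 to 1.73). It was 1.53-fold higher in aba2-1 than in WT labelled release (1.28 to 1.84). The p5cs1-4 control was 1.56-fold above the WT control (1.23 to 2.00).

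**Figure D2:**
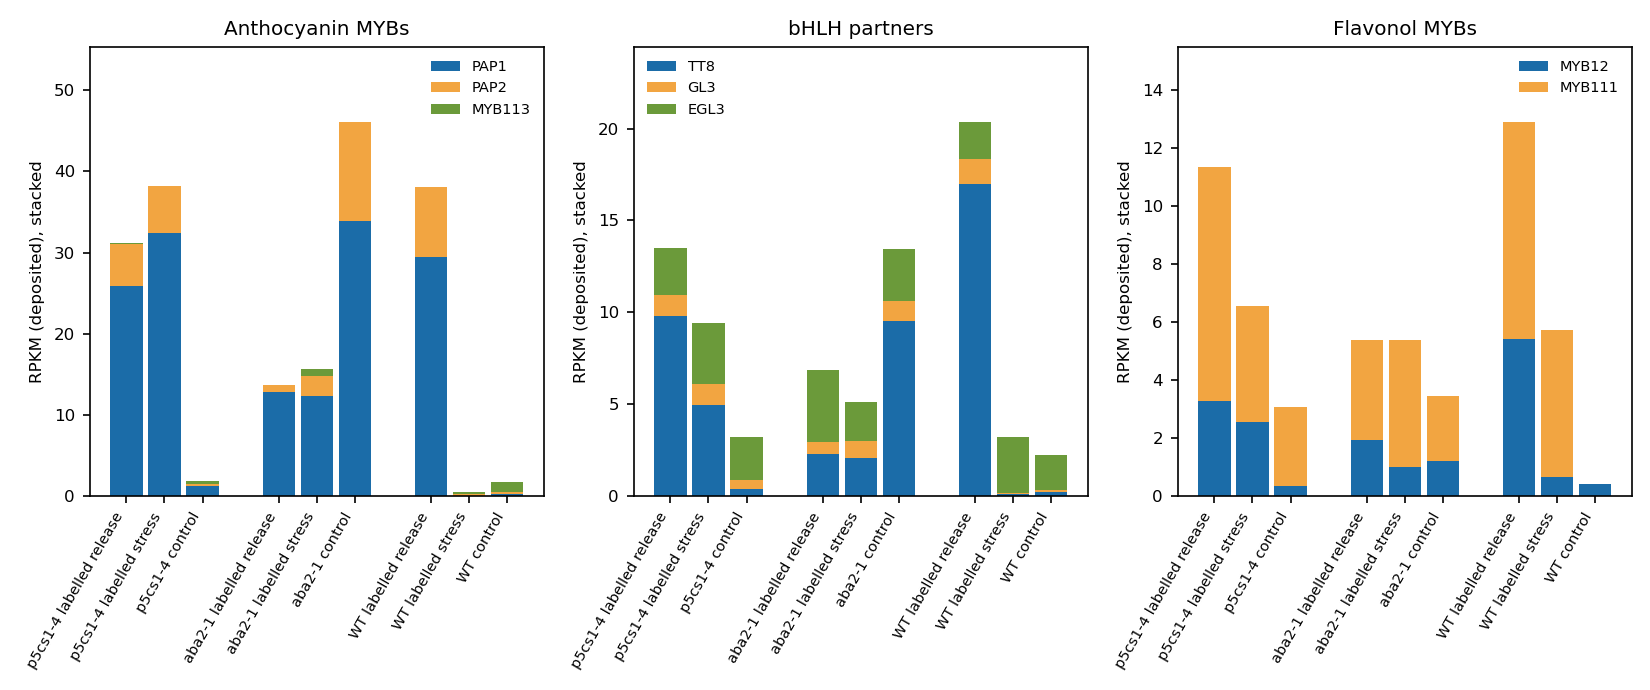
Stacked deposited RPKM (reads scaled by gene length and library total) of the anthocyanin MYBs, the bHLH partners and the flavonol MYBs in the 9 libraries. PAP1 is the larger part of the MYB sum wherever that sum is high, and TT8 is 83.3% of the bHLH sum in WT labelled release but 2.01% in WT labelled stress.

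MYB12 and MYB111, which activate CHS and FLS1 for flavonol synthesis, were both highest in the libraries labelled release of p5cs1-4 and WT. MYB12 had 4.77 CPM in p5cs1-4 labelled release, 3.64 in p5cs1-4 labelled stress and 0.530 in the p5cs1-4 control. In aba2-1 it had 2.57 CPM labelled release, 1.40 labelled stress and 1.86 in the control, and in WT 8.27, 1.05 and 0.699 CPM in that order of treatments. The WT library labelled release was 11.8-fold above the WT control (3.89 to 58.7) and 7.86-fold above WT labelled stress (3.78 to 18.9). Unlike PAP1, MYB12 was not high in the aba2-1 control, which was 2.67-fold above the WT control with an interval that includes equality (0.686 to 15.1, 10 reads against 3).

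MYB111 had 10.6 CPM in p5cs1-4 labelled release, 5.13 in p5cs1-4 labelled stress and 4.01 in the p5cs1-4 control. The aba2-1 libraries held 4.21 CPM labelled release, 5.62 labelled stress and 3.17 in the control. In WT it had 10.3 CPM labelled release and 7.37 labelled stress but no read in the control, where 3 reads would be 0.699 CPM. Against that floor WT labelled release was at least 14.8-fold and WT labelled stress at least 10.54-fold higher. MYB111 was the only regulator 2-fold higher in WT labelled stress than in the WT control, and that difference rests on the shallowest library. In the 8 other libraries MYB111 stayed between 3.17 and 10.6 CPM.

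MYBL2, the repressor, was lower in each library labelled release than in the control of the same genotype. Its levels were 22.0 CPM in p5cs1-4 labelled release, 44.3 in p5cs1-4 labelled stress and 54.4 in the p5cs1-4 control. They were 29.9, 20.1 and 64.0 CPM in aba2-1 and 27.2, 70.6 and 53.6 CPM in WT in the same order of treatments. The library labelled release was lower than its control by 2.47-fold in p5cs1-4 (2.18 to 2.81), 2.14-fold in aba2-1 (1.85 to 2.48) and 1.97-fold in WT (1.63 to 2.37). MYBL2 was not simply low where PAP1 was high, since the aba2-1 control held the highest PAP1 level and the next to highest MYBL2 level. Per length, MYBL2 was 0.717 times the summed RPKM of PAP1, PAP2 and MYB113 in p5cs1-4 labelled release, 1.197 times in p5cs1-4 labelled stress and 27.8 times in the p5cs1-4 control. The ratio was 2.40, 1.34 and 1.31 in aba2-1, and 0.690, 161 and 26.3 in WT, again with labelled release first, then labelled stress and the control. The 161 rests on 3 reads of the 3 MYB genes.

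Called is used below for a gene at least 2-fold apart on the scale of log2(CPM + 1) that has at least 5 CPM in either library. In p5cs1-4 labelled release against its control, 7 regulators reached 5 CPM, 4 were called higher (PAP1, PAP2, TT8 and MYB111) where 8.40% of all genes past that floor were, and MYBL2 was called lower where 11.8% were. In WT labelled release against control, 7 reached the floor and 5 were called higher, MYB12 besides the same 4, where 12.7% of all genes were. In aba2-1 the same comparison gave 4 called lower, PAP1, PAP2, TT8 and MYBL2, of 6 that reached the floor, against 5.62% of all genes, and none higher. Since members pass the floor through their high library, these shares are descriptions and not tests.

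For the libraries labelled stress the genotypes parted in another way. In p5cs1-4, PAP1, PAP2 and TT8 were called higher than in the control (4.03% of all genes), in aba2-1 PAP1, PAP2, TT8 and MYBL2 were called lower (3.57%), and in WT only MYB111 was called, higher (4.45%). Between the libraries labelled release and labelled stress no regulator was called in p5cs1-4 (12.2% of genes called in either direction) or aba2-1 (9.43%). Some folds of CPM were still apart beyond counting error. In p5cs1-4 labelled release MYB111 was 2.06-fold higher (1.44 to 3.02) and MYBL2 2.01-fold lower (1.72 to 2.35), and in aba2-1 labelled release PAP2 was 3.01-fold lower (1.39 to 7.01) and EGL3 1.75-fold higher (1.23 to 2.51). In WT 5 were called, with PAP1, PAP2, TT8 and MYB12 higher labelled release (10.3% of genes) and MYBL2 lower (11.6%).

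Between genotypes, no regulator was called in the p5cs1-4 and WT libraries labelled release, where 3.13% of all genes were called in either direction. Their folds there ran up to 1.83, for TT8, which was lower in p5cs1-4 (1.54 to 2.17). Libraries labelled stress did differ, with PAP1 at least 73.9-fold, TT8 67.7-fold (11.7 to 2714) and PAP2 21.0-fold (5.46 to 179) higher in p5cs1-4 than in WT, against 5.94% of genes called higher. In the controls no regulator was called between p5cs1-4 and WT (6.51% in either direction), with 3 at the floor. The aba2-1 library labelled release was lower than the WT one at PAP1, PAP2, TT8, MYB12 and MYB111 (5.27% of genes called lower), TT8 by 8.57-fold (6.31 to 11.9) and PAP1 by 2.62-fold (2.12 to 3.25). The aba2-1 control was higher than the WT control at PAP1, PAP2 and TT8 (8.13%). In the libraries labelled stress aba2-1 was higher than WT at PAP1 (at least 27.8-fold, 6.65% of genes) and lower at MYBL2 (3.51-fold, 2.99 to 4.13, 6.49%). These comparisons share libraries, so they are not independent of each other.

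**Figure D3:**
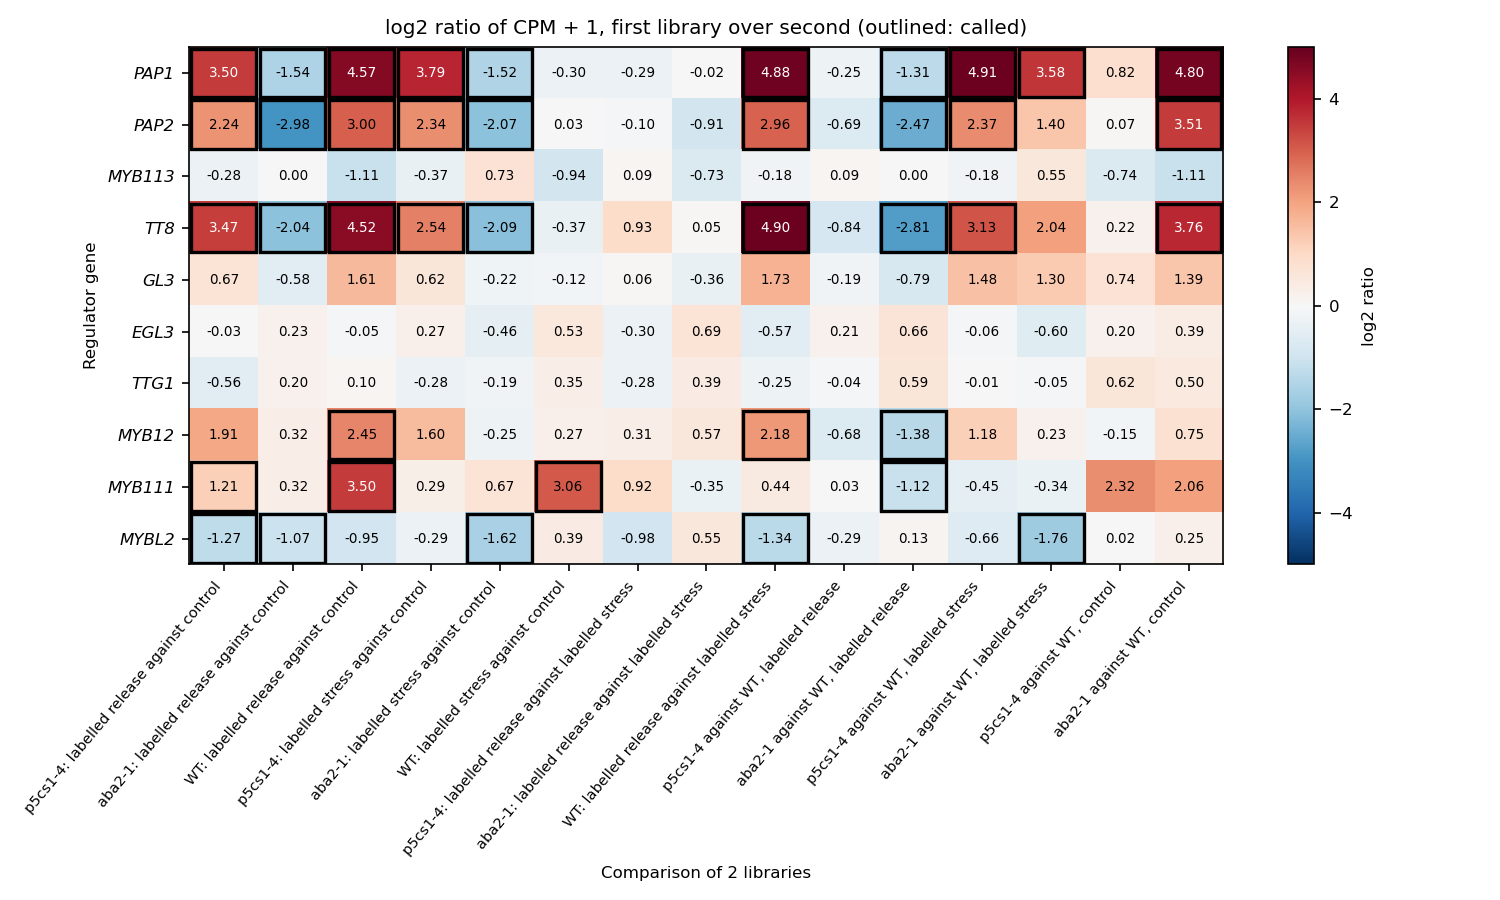
Difference of log2(CPM + 1) for each regulator in the 15 comparisons, first-named library minus second, with called values outlined. PAP1, PAP2 and TT8 are positive against the control in p5cs1-4 and, for labelled release, in WT, and negative against the control in aba2-1.

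The enzyme genes that these regulators act on differed between the same libraries. The late list held 8 genes of the anthocyanin branch, among them DFR, LDOX and the anthocyanin glucosyltransferase UGT79B1. All 8 were called higher in p5cs1-4 labelled release than in the p5cs1-4 control, with a median log2 ratio of 4.86 beside 0.00 over all genes past the floor. In aba2-1 all 8 were called lower labelled release than in the control (median -2.13), and in WT 7 of 8 were called higher (median 4.91). DFR, the first enzyme committed to anthocyanins, had 438 CPM in p5cs1-4 labelled release, 249 in p5cs1-4 labelled stress and 5.77 in the p5cs1-4 control. In aba2-1 DFR had 114 CPM labelled release, 105 labelled stress and 391 in the control. WT held 567 CPM labelled release, 2.89 labelled stress and 6.99 in the control. The aba2-1 control exceeded the WT control by 2-fold or more at 8 of 8 late genes (median log2 ratio 5.22).

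Early genes differed less evenly. CHS, the entry enzyme of the pathway, had 1429, 387 and 78.7 CPM in p5cs1-4, 381, 202 and 852 CPM in aba2-1 and 1655, 86.6 and 56.4 CPM in WT, each time labelled release, labelled stress and control. FLS1, which makes flavonols and no anthocyanin, had 44.2, 19.2 and 13.6 CPM in p5cs1-4, 24.7, 20.5 and 11.9 CPM in aba2-1, and 29.2, 12.2 and 2.56 CPM in WT. FLS1 was thus not highest in the aba2-1 control, unlike CHS and DFR within that genotype, and like MYB12 and MYB111. Of the 8 early genes, 7 were called higher in p5cs1-4 labelled release than in the control and 1 lower, UGT78D1, a flavonol rhamnosyltransferase. In aba2-1 4 were called lower and none higher, and in WT 7 were called higher. F3H is uncertain, since up to 0.98 of its reads in a library mapped to several places, as is 3AT1 of the late list with up to 0.605.

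The WT control, WT labelled stress and p5cs1-4 control were the 3 lowest libraries for 5 of the 10 regulators (PAP1, PAP2, TT8, GL3 and MYB12), 6 of 8 early and 7 of 8 late genes. Of all 17821 genes that reach 5 CPM in any library, 8.10% had the same 3 lowest. The sets are not alike, since GL3 and MYB113, counted among the 10 regulators, reached 5 CPM in no library. The trio was picked after the values were seen, so this is a description. For PAP2, GL3 and MYB12 the order at its edge was within counting error. For MYB12 that edge lay between aba2-1 and WT labelled stress (1.33-fold, 0.531 to 3.64). For PAP2 it lay between aba2-1 labelled release (0.779 CPM, 10 reads) and the p5cs1-4 control (0.295 CPM, 5 reads). Root markers had their lowest sums in the same 3 libraries, with 36.0 CPM in p5cs1-4 labelled release, 60.7 in p5cs1-4 labelled stress and 10.9 in the p5cs1-4 control. The sums were 12.5, 18.5 and 30.7 CPM in aba2-1 and 19.5, 11.6 and 7.92 CPM in WT, and EXPA7 was at 0 in the WT control. Leaf markers had 4781, 11571 and 21822 CPM in p5cs1-4, 7468, 8028 and 14340 CPM in aba2-1, and 7107, 20180 and 26305 CPM in WT, in that order of treatments. The part of either in the regulators' levels was not tested. Seed coat markers, another site of TT8 action, summed to at most 3.85 CPM, with TT2 at 0 in 8 libraries and TT1 at 0 in all 9.

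**Figure D4:**
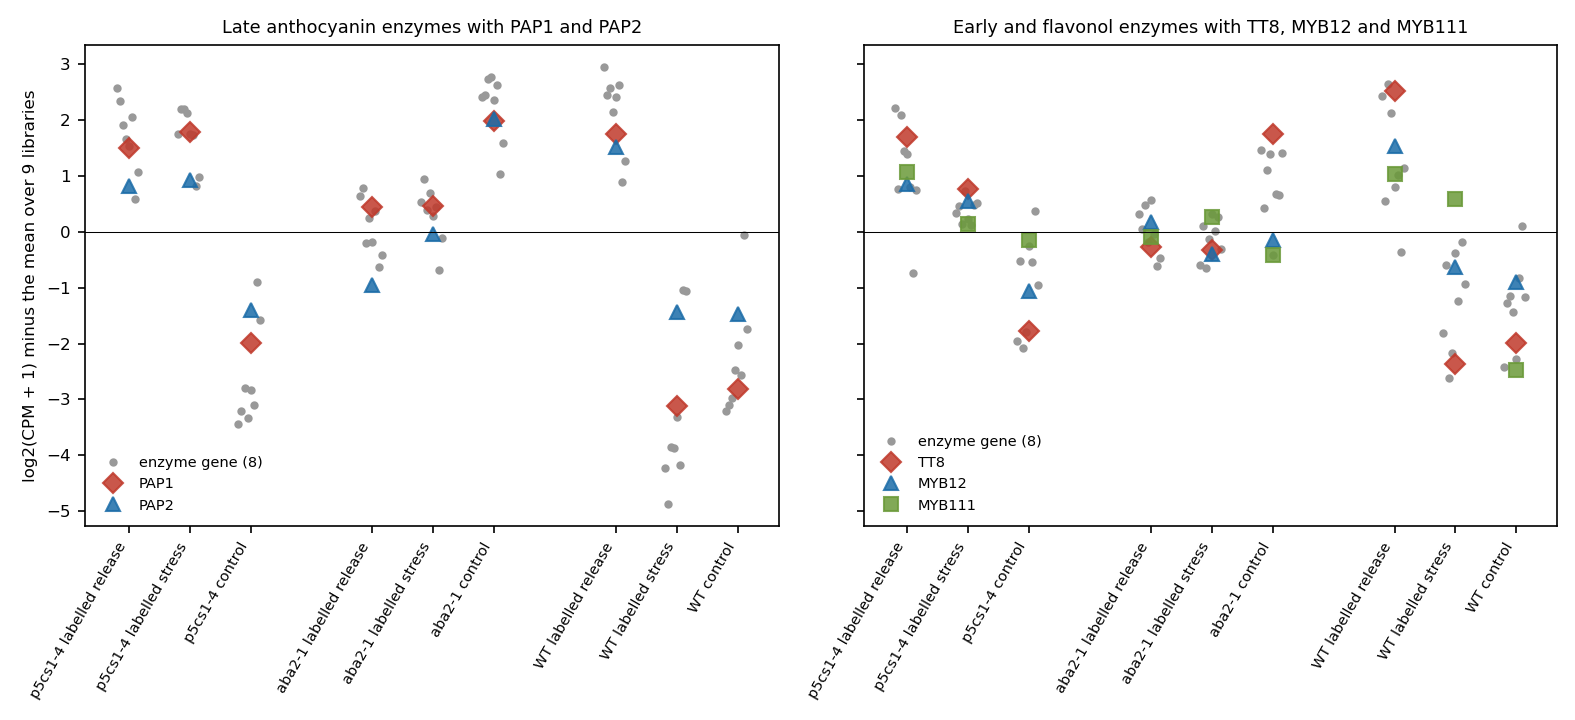
Mean-centred log2(CPM + 1) over the 9 libraries for the late enzyme genes (grey points, left) with PAP1 and PAP2, and for the early enzyme genes (grey, right) with TT8, MYB12 and MYB111. In the aba2-1 control PAP1, PAP2, TT8 and all late genes are above their own mean, while MYB12 and MYB111 are below theirs.

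Genes most like each regulator were taken as those with the smallest root-mean-square distance between mean-centred log2(CPM + 1) profiles over the 9 libraries, among the 17821 genes above. PAP1 was nearest to ChlAKR, an aldo-keto reductase (distance 0.42, where the spread of PAP1 itself was 1.96), to AT1G80130 (0.47) and to the anthocyanin malonyltransferase gene 5MAT (0.51). PAP2 was nearest to the anthocyanin acyltransferase gene 3AT1 (0.31), AT1G17744 (0.39) and the flavonoid glucosyltransferase gene UGT78D2 (0.41). TT8 was nearest to AT1G68570 (0.25), F3'H (0.29) and CHS (0.41). Between members, PAP2 and TT8 were 0.64 apart and PAP1 and TT8 0.68, where the spreads of PAP2 and TT8 themselves were 1.30 and 1.70.

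The flavonol MYBs had other nearest genes. MYB12 was closest to MIZ1, a gene of root hydrotropism (0.22), and MYB111 to AT3G48830 (0.33) and NAC100 (0.33). AT3G48830 and NAC100 each had 0.233 CPM, 1 read, in the WT control, the shallowest library, where MYB111 had no read. MYB12 and MYB111 were 0.80 apart, where their own spreads were 0.81 and 0.997. MYBL2 was closest to AT1G06980 (0.22), a lipid transfer protein gene (0.22) and BES1, a transcription factor of brassinosteroid signalling (0.25). EGL3 and TTG1, which differed by less than 2-fold over the libraries, lay within 0.14 of ABCA2 and 0.094 of AT1G61500, and within 0.20 of each other. Their own spreads were only 0.25 and 0.23, so that 0.20 is little below either, and 103 and 183 genes were nearer to them. These distances share depth and library and carry no test.

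Treatment and genotype were fitted as additive terms to all 9 libraries with edgeR's quasi-likelihood test, Benjamini-Hochberg adjusted over 19600 genes. Its 4 residual degrees of freedom measure how far libraries depart from additivity, not the spread of replicates. Of the 10 regulators 9 were tested (MYB113 was too low) and none passed an adjusted p of 0.05 in any of the 5 contrasts. For labelled release minus control, 5.73% of all genes passed, 2 regulators (MYB12 and MYBL2) had an unadjusted p under 0.05, and DESeq2 called 2, where it called 16.8% of all genes. MYB12 was 2.34 ± 0.81 higher in the libraries labelled release on the log2 scale (SE, adjusted p = 0.117 by edgeR and 0.0270 by DESeq2). It was higher in 3 of 3 genotypes, although in aba2-1 by 1.38-fold with an interval that includes equality (0.665 to 3.14). MYBL2 was at -1.13 ± 0.38 (adjusted p = 0.109 by edgeR and 0.0271 by DESeq2), lower in 3 of 3 genotypes. PAP1 was at 2.15 ± 1.98 (adjusted p = 0.507 by edgeR) and TT8 at 2.32 ± 1.95 (adjusted p = 0.465 by edgeR), each higher in 2 of 3 genotypes.

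In the other contrasts no regulator had an unadjusted p under 0.05 by edgeR, and DESeq2 called none. Labelled release minus labelled stress passed at 3.72% of all genes by edgeR and at 13.2% by DESeq2. Labelled stress minus control, aba2-1 minus WT and p5cs1-4 minus WT each passed at 0% of genes by edgeR, where 1616, 2875 and 2107 genes had an unadjusted p under 0.05 and DESeq2 called 67, 531 and 157. FLS1 was the only early enzyme gene that passed labelled release minus control, at 1.93 ± 0.41 on the log2 scale (adjusted p = 0.0430 by edgeR). No late gene passed. The medians of the early and late lists were 1.41 and 2.26, beside 0.02 over all genes.

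Without aba2-1, in the 6 libraries of p5cs1-4 and WT, 5 regulators passed labelled release minus control by edgeR, where 19.6% of 19549 genes did. This fit leaves fewer residual degrees of freedom than the 4 of the fit to all 9 libraries. They again measure departure from additivity, not the spread of replicates. PAP1 rose by 5.91 ± 1.63 on the log2 scale (adjusted p = 0.0417 by edgeR), PAP2 by 5.01 ± 1.31 (0.0350), TT8 by 5.73 ± 1.30 (0.0215) and MYB12 by 3.49 ± 0.83 (0.0252), and MYBL2 fell by 1.16 ± 0.23 (0.0129). With them 7 of 8 early and 7 of 8 late genes passed and rose, CHS by 4.61 ± 0.56 and DFR by 6.61 ± 1.57. Root markers EXPA7 and LRX1 rose and all 5 leaf markers fell in the same fit, and their part in the regulators' values was not tested. MYB111 (2.28 ± 0.90, adjusted p = 0.119 by edgeR) and GL3 (2.17 ± 1.05, adjusted p = 0.192 by edgeR) did not pass. In labelled release minus labelled stress without aba2-1, where 9.68% of all genes passed, MYBL2 was the only regulator that did and fell by 1.203 ± 0.226 (adjusted p = 0.0188 by edgeR). This omission leaves out the genotype whose libraries went the other way, and the other omissions gave no call. Without WT, PAP1 was at 0.16 ± 1.70, TT8 at 0.11 ± 1.93 and PAP2 at -1.19 ± 2.22 on the log2 scale, and without p5cs1-4 they were at 2.54 ± 2.21, 2.26 ± 2.24 and 0.73 ± 2.27. Over all alternative fits the adjusted p ranged between 0.0417 and 0.971 for PAP1, 0.0350 and 0.910 for PAP2, 0.0215 and 0.983 for TT8, 0.0252 and 0.458 for MYB12, and 0.0129 and 0.471 for MYBL2.

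A list of 13 other inhibitors of the pathway and of the MYB complex held 10 that were tested, and none of them passed labelled release minus control over the 9 libraries. ETC3, a single-repeat MYB that competes in the complex, had 11.5, 3.24 and 0.884 CPM in p5cs1-4, 1.79, 1.03 and 1.30 CPM in aba2-1 and 8.61, 1.84 and 0 CPM in WT (labelled release, labelled stress, control). It rose by 4.28 ± 0.74 without aba2-1 (adjusted p = 0.00841 by edgeR), while LBD38, a repressor of anthocyanin genes in nitrate supply, fell by 1.11 ± 0.22 (adjusted p = 0.0132 by edgeR). MYB7, a repressor MYB, rose in labelled release minus labelled stress over all 9 libraries, by 1.84 ± 0.34 (adjusted p = 0.0401 by edgeR).

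Among 9 light-signalling genes upstream of PAP1, none passed labelled release minus control over the 9 libraries. PIF3, which binds anthocyanin gene promoters with HY5, had 110, 32.3 and 24.0 CPM in p5cs1-4, 33.7, 19.7 and 39.3 CPM in aba2-1 and 107, 20.4 and 19.1 CPM in WT, and rose by 2.35 ± 0.22 without aba2-1 (adjusted p = 0.00169 by edgeR). HY5, an activator of PAP1 in light, had 12.0, 20.5 and 6.78 CPM in p5cs1-4, 9.66, 14.8 and 12.1 CPM in aba2-1 and 7.23, 8.68 and 2.79 CPM in WT, and passed in neither fit. In labelled release minus labelled stress, the HY5 relative HYH fell by 1.37 ± 0.21 (adjusted p = 0.0284 by edgeR) and the UV-B receptor gene UVR8 rose by 0.67 ± 0.14 (adjusted p = 0.0490 by edgeR). None of the 6 epidermal genes of the TTG1 complex, such as GL2 and TTG2, passed labelled release minus control in either fit.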

How the data were processed

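Polyadenylated RNA of 9 libraries was analysed, 1 for each genotype and treatment. Per the file headers each table holds gene length (unit other, in kb), an estimated count of reads, RPKM and a fraction of multi-mapping reads. In the deposited estimated counts, reads that map to several places are split between genes, and they were between 2.79% and 3.89% of a library. The deposited RPKM are scaled by length and library total. The deposited fraction runs from 0 to 1. CASAVA 1.6 and TAIR10 are named, per the submitters' processing notes, without saying what for. How reads were aligned and counted is not given in the sources used here.

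Estimated counts were rounded and scaled to CPM with TMM factors. Folds between 2 libraries are ratios of CPM with exact 95% conditional intervals, against a floor of 3 reads in that library where it had 0. Log2 ratios and calls used CPM + 1, a 2-fold difference and 5 CPM in either library. Reads were amplified without molecular identifiers, so intervals and floors cover counting error only. The additive model used edgeR 4.0.16 (mean of at least 1 CPM) in R 4.3.3, with DESeq2 1.42.0 as the alternative. It was also run on simulated data without differences between genotypes and with less spread than the common dispersion of 0.0946 found here. That run does not bear on departures from additivity. Each SE is the log2 fold over the root of its F. Other alternatives were the pseudocount, the scaling, the floor or filter, uniquely assigned reads, RPKM and leaving out each genotype or treatment. Coordinates and promoters are from TAIR10.1.

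All 10 members are named. Of each list of other genes up to 4 with the largest absolute log2 fold in labelled release minus control, any gene of a list with 8 or fewer, and the 3 most alike genes are named. LBD38, UVR8 and the trio of lowest libraries were chosen after their values were seen. The members and lists were chosen with earlier results of these data known.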

Additional observations from a re-analysis of the deposited data

Results flagged for a closer look

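The activator genes PAP1, PAP2 and TT8 stood on opposite sides of the control in aba2-1 and in p5cs1-4, and for labelled release also in aba2-1 and in WT. With 1 library per group these differences were not tested. Every aba2-1 ratio below, for labelled release and for labelled stress, shares the aba2-1 control. In that library RAB18 also had 252 CPM, against 31.4 CPM in the WT control.

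For labelled release against control, the log2 ratio of PAP1 was 3.50 in p5cs1-4 and -1.54 in aba2-1, which differ by 5.04, and 4.57 in WT, 6.11 above aba2-1. PAP2 was at 2.24 in p5cs1-4 and -2.98 in aba2-1, 5.21 apart, and at 2.997 in WT, 5.98 above aba2-1. TT8 was at 3.47 in p5cs1-4 and -2.04 in aba2-1, 5.51 apart, and at 4.52 in WT, 6.56 above aba2-1.

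For labelled stress against control, p5cs1-4 exceeded aba2-1 by 5.31 for PAP1 (3.79 against -1.52), by 4.41 for PAP2 (2.34 against -2.07) and by 4.63 for TT8 (2.54 against -2.09). WT labelled stress had at most 2 reads of each gene, with log2 ratios to the WT control of -0.30 for PAP1, 0.03 for PAP2 and -0.37 for TT8.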

How the results depend on the processing

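Of 600 log2 ratios of regulators recomputed under other settings, 5 moved beyond their counting interval and none changed direction among called ones. With a floor of 20 CPM the regulators called higher were 2 in WT labelled release against control, 2 in WT labelled release against labelled stress, 0 in WT labelled stress against control, 1 in p5cs1-4 labelled release and 1 in p5cs1-4 labelled stress against control, 1 in p5cs1-4 and 0 in aba2-1 against WT labelled stress, and 1 in the aba2-1 against the WT control. Those called lower became 2 in aba2-1 labelled release against control, 2 in aba2-1 labelled stress against control and 2 in aba2-1 against WT labelled release. With no floor, 5 were higher and 1 lower in the aba2-1 against the WT control, 4 were higher in aba2-1 and 5 in p5cs1-4 against WT labelled stress, 1 was higher in the p5cs1-4 against the WT control and 1 lower in WT labelled release against control. In p5cs1-4 labelled release against labelled stress, a pseudocount of 0.1 CPM gave 1 higher and 1 lower, and median-of-ratios scaling and RPKM gave 1 lower each. The share of all genes called under these other settings is not given here. The counts therefore describe only how the calls depend on the setting.

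In the additive model DESeq2 passed 2 regulators for labelled release minus control, with 16.8% of all genes, and leaving out a genotype or treatment gave between 0 and 5, the 5 without aba2-1, with 19.6% of all genes. For labelled release minus labelled stress it gave between 0 and 1, the 1, MYBL2, again without aba2-1, with 9.68% of all genes. Over these omissions the log2 fold of EGL3 for labelled release minus control ran between -0.050 and 0.13, that of PAP2 between -1.19 (without WT) and 5.01, and that of TTG1 between -0.27 and 0.16 (without p5cs1-4). The cause was not tested. No paired analysis was possible because RNA of 3 experiments was pooled into 1 library for each group. The WT control, with 4898426 reads, limits every fold against it.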
